A study of Homo sapiens with 4 samples.

Results

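The strongest reproducible MEIS sites in human neural stem cells (hNSC) were the 443 of 5169 sites whose merged −log10 p was at least 150, which is 8.57% of the list of reproducible sites. They were selected on this measured value, so peak strength describes them and was not tested. The 4726 sites below 150 are called the weaker sites here, and they served as the comparison for position, neighbouring genes and sequence, which the selection did not use.

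MEIS1 and MEIS2 belong to the TALE class of homeodomain proteins, in which a loop of the homeodomain is extended by a few amino acids. They bind the DNA sequence TGACAG, often next to a PBX protein, another TALE factor, whose own site TGAT or TGAG then lies directly before it. In the developing nervous system they take part in keeping progenitors and in specifying neurons, and many of their sites lie in enhancers far from the gene they act on.

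ChIP-seq, the sequencing of DNA recovered with an immunoprecipitated protein, was carried out on untreated hNSC, a commercial Gibco culture grown in StemPro NSC SFM on Geltrex. There were 2 MEIS ChIP samples and 2 Input samples, Input being sheared chromatin that was not immunoprecipitated, and 2 batches of cells were processed in parallel. A mixture of the antibodies anti-MEISa (K830) and anti-MEIS1 (K844) was used, so a site does not tell which MEIS protein was bound. All sites come from 1 kind of culture, whose identity cannot be checked against marker genes in a peak list, and the number of reads behind the lists is unknown.

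The sequences at the summits of the strongest sites are shown first, because the search for MEIS motifs starts from them. Each line gives the gene with the nearest canonical start and the 101 bases centred on the summit, 5′ to 3′ on the plus strand of GRCh37, with TGACA and its reverse complement TGTCA in capitals.
DIRAS3 (chr1:68606904-68607004): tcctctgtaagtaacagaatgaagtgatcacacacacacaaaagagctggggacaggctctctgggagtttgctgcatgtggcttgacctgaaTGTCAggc
EPHA7 (chr6:94755263-94755363): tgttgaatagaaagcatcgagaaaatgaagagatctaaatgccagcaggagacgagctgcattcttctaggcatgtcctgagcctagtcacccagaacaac
NFE2L3 (chr7:25792789-25792889): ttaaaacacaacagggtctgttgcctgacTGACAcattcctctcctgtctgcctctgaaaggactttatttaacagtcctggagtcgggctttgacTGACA
NR2F2 (chr15:97080499-97080599): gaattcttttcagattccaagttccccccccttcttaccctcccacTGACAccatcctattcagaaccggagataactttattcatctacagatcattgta
G6PC1 (chr17:41077139-41077239): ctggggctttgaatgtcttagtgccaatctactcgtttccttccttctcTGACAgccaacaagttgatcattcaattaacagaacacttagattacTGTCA
PKNOX2 (chr11:125104888-125104988): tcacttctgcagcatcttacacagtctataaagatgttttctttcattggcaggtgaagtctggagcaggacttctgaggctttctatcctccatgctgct
LGR4 (chr11:27466469-27466569): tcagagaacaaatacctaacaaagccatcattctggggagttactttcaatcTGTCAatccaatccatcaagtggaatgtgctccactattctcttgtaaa
PCDH9 (chr13:67702520-67702620): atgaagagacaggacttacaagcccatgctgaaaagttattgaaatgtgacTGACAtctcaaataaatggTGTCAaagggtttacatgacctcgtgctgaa
RGMA (chr15:94034334-94034434): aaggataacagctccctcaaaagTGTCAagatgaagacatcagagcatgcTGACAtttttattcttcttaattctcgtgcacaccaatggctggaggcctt

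In these windows the TGACA core stood within a few bases of the summit at G6PC1, LGR4, PCDH9, RGMA and NR2F2, further out at NFE2L3 and at the edge of the window at DIRAS3. The windows at EPHA7 and PKNOX2 held no TGACA on either strand. Of the 10 strongest sites 5 had no TGACAG in the 500 bp around the summit, and of the 20 strongest 7 had none. For comparison, TGACAG was present in 59.4% of all strongest and 58.2% of the weaker sites.

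The values of these sites stood far above the rest of the list in both replicates. The strongest site, in intron 10 of WLS, the carrier of Wnt ligands to the cell surface, and 90.6 kb upstream of the start of DIRAS3, a small GTPase, reached a −log10 p of 3132 in the first replicate and of 3008 in the other. Its fold enrichment over input was 152 in replicate 1 and 288 in replicate 2. The site 626 kb upstream of EPHA7, an ephrin receptor, had values of 2882 and 2930, and no protein-coding gene started within 500 kb of it. The intergenic site nearest to NFE2L3, a basic leucine zipper factor, had values of 2231 and 2353. Replicates 1 and 2 gave −log10 p values of 1887 and 2001 at the site 207 kb downstream of the start of NR2F2, an orphan nuclear receptor of the COUP-TF family.

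The next sites covered several classes of gene. Values of 1681 and 1843 were found near G6PC1, the catalytic subunit of glucose-6-phosphatase, at a site 24.4 kb downstream of its start. A site in intron 1 of PKNOX2, itself a TALE factor, had values of 1481 and 1906, and a site in intron 1 of LGR4, a receptor for R-spondins, had values of 1428 and 1848. The site in intron 2 of PCDH9, a protocadherin, was higher in replicate 1, with 1552 against 1360, and the site 402 kb upstream of RGMA, a repulsive guidance molecule, had values of 1318 and 1389. Of the 9 sites shown, those at DIRAS3 and PCDH9 alone were higher in replicate 1.

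Among the sites ranked 11 to 20 by −log10 p, the nearest genes were EPHA3 (another ephrin receptor), RSU1, RANBP3L, ACVR2A (an activin receptor), FBXL7, VRK2, PRKCA (protein kinase C alpha), ADGRL2 (a latrophilin), TGIF1 (a TALE repressor) and ZFPM2 (a cofactor of GATA factors). Their merged values ran from 1301 at EPHA3 to 1044 at ZFPM2. The site at TGIF1 lay in intron 7 of the neighbouring gene DLGAP1, and those at RSU1, PRKCA and ZFPM2 in introns of the named gene. Of the 20 strongest sites 13 lay more than 100 kb from the nearest canonical start and 1, at FBXL7, within 5 kb.

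Over all strongest sites, the replicate 1 values of −log10 p had the median 281 (lowest 151, highest 3132) and those of replicate 2 the median 310 (151 to 3008). The weaker sites had medians of 30.8 and 36.6. Within a tolerance of 0.001, the merged value was the lower of the replicate values in all 443 strongest sites and in 4702 of the weaker sites, and in the strongest sites replicate 1 was the lower in 271 and replicate 2 in 172. The higher value was a median of 1.23 times and at most 2.79 times the lower one. The median fold enrichment over input was 26.0 and 49.6 in replicates 1 and 2, against 6.04 and 10.7 in the weaker sites, and it was higher in replicate 2 in 441 of the 443 strongest sites and in 4595 of the weaker sites. The reads behind each replicate are unknown, so folds were compared within a replicate. Between the replicates, the −log10 p of the strongest sites had a Spearman's rho of 0.821 across 443 sites, which are not independent replicates and share the libraries. The selection acted on these same values, as all 443 reached 150 in both replicates, so rho describes the selected sites and does not test agreement.

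**Figure D1:**
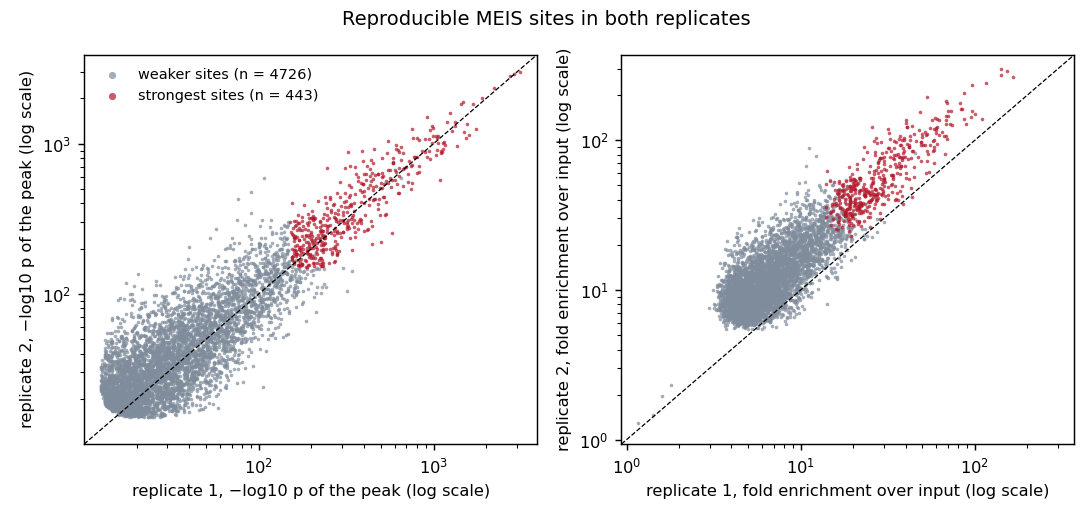
Strength of the reproducible MEIS sites in replicate 1 (x axis) and replicate 2 (y axis), on log scales, as −log10 p of the peak (left) and as fold enrichment over input (right). Each point is a site, red for the 443 strongest and grey for the 4726 weaker sites, and the dashed line marks equal values. The strongest sites lie near the line for −log10 p, and 441 of them lie above it for fold enrichment.

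Values ran on across the threshold of 150. Just inside it were the sites near PPP1CB with a merged value of 151.7, ZNF608 with 150.9 and ZNF367 with 150.8, and just outside it the sites near FNBP1 with 149.98, SHROOM3 with 149.9 and GJE1 with 149.4. Of the strongest sites 301 reached 200, 185 reached 300, 98 reached 500 and 24 reached 1000. Another 69 weaker sites reached 150 in replicate 1 alone, 167 in replicate 2 alone and 5 in both. These 5 had merged values from 31.8 to 80.1, and each overlapped more than 1 peak in a replicate, of which the strongest was read here. The median width was 1416 bp in the strongest and 1055 bp in the weaker sites, and the summits of the replicates lay a median of 3 bp and 12 bp apart.

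The strongest sites lay further from gene starts than the weaker sites. A canonical start of a protein-coding gene was within 5 kb of 16 strongest sites (3.61%) and of 420 weaker sites (8.89%), a difference of −5.28 percentage points (95% interval −6.89 to −2.97). More than 100 kb separated the summit from the nearest canonical start in 254 strongest sites (57.3%) and in 49.4% of the weaker sites, a difference of 7.89 points (3.02 to 12.6). The median distance was 131 kb (lowest 0.006 kb, highest 2131 kb) against 97.9 kb. The intervals are Newcombe's score intervals for a difference of shares and count sites, which share libraries and are not replicates of the cells.

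Between these limits the classes differed less. Distances of 5 to 20 kb were found in 7.90% of the strongest and 9.73% of the weaker sites (difference −1.83 points, −4.17 to 1.17), and distances of 20 to 100 kb in 31.2% and 31.9% (−0.78 points, −5.13 to 3.87). Sites 100 to 500 kb away made up 44.02% of the strongest and 38.5% of the weaker sites (5.53 points, 0.77 to 10.4). Sites over 500 kb away made up 13.3% and 11.0% (2.36 points, −0.64 to 5.94). When the start of any annotated transcript was used, including those of non-coding genes, 19.9% of the strongest and 29.8% of the weaker sites lay within 5 kb (−9.97 points, −13.7 to −5.80). Against the 1065 weaker sites with a −log10 p of at least 50, of which 5.92% lay within 5 kb of a canonical start, the difference was −2.30 points and its interval included 0 (−4.40 to 0.21).

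**Figure D2:**
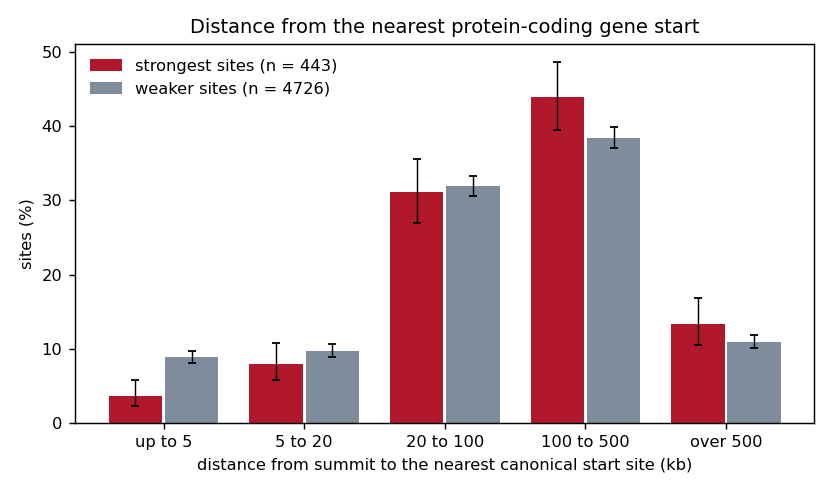
Share of sites (y axis, %) by the distance in kb from the summit to the nearest canonical start site of a protein-coding gene (x axis), with red bars for the 443 strongest and grey bars for the 4726 weaker sites and Wilson 95% intervals as error bars. The strongest sites make up less of the class up to 5 kb (3.61% against 8.89%) and more of the class from 100 to 500 kb (44.02% against 38.5%).

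The 16 strongest sites within 5 kb of a canonical start were led by those at FBXL7 (4.94 kb upstream, merged value 1199) and PAFAH2 (4.27 kb downstream, 877). The nearest to a start lay 0.006 kb upstream of PKNOX2, with a value of 197, so that PKNOX2 had a strong site at its start as well as the stronger one in intron 1. At 0.141 kb upstream of MPHOSPH9 the value was 317, at 1.86 kb upstream of TLE3 it was 284, at 0.447 kb upstream of TLE1 it was 178 and at 0.499 kb upstream of TLE4 it was 169. The TLE genes, which encode Groucho-type co-repressors, are named here after their values were seen.

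By feature, 239 of the strongest sites (54.0%) were intergenic, 200 (45.1%) lay in introns, 3 in a 3′ UTR and 1 in a coding exon of the canonical transcript, and none in a 5′ UTR, where a count of 0 of 443 allows a share of up to 0.677%. Of the weaker sites, 56.1% were intergenic and 41.6% in introns. Exons of canonical transcripts held 0.903% of the strongest and 2.33% of the weaker sites (−1.42 points, −2.15 to 0.03). Inside a protein-coding gene body lay 46.0% of the strongest and 43.9% of the weaker sites (2.12 points, −2.68 to 6.99), a difference that was not detectable with this number of sites. Among the intronic strongest sites, 137 lay in an intron of the gene with the nearest start and 63 in an intron of another gene, and 40 lay in intron 1.

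The strongest sites had another reproducible site nearby more often. Within 50 kb this held for 179 strongest sites (40.4%) and for 33.8% of the weaker sites (6.59 points, 1.92 to 11.4). Within 10 kb the shares were 14.4% and 11.2% (3.25 points, 0.14 to 6.94), and within 100 kb 55.5% and 50.1% (5.38 points, 0.51 to 10.2). Against weaker sites of at least 50 the difference within 50 kb was 2.66 points (−2.69 to 8.11), and with replicate 1 alone setting the strongest sites it was 3.50 points (−0.80 to 7.96), so the call was lost in both cases. The median distance to the next site was 74.9 kb for the strongest and 99.5 kb for the weaker sites.

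When strongest sites less than 500 kb apart were joined, 304 stood alone, 44 groups held 2 sites and 16 groups held 3 or more. The largest group, 5 sites over 603 kb on chromosome 15, had NR2F2 as its nearest gene throughout, with values from 202 to 1887 and 4 weaker sites between them. A second group of 3 sites over 471 kb on the same chromosome also had NR2F2 as the nearest gene. There were 14 groups of 3, among them those at EPHA7 over 941 kb on chromosome 6 and at PCDH9 over 665 kb on chromosome 13. Others lay at ADGRL2 over 544 kb on chromosome 1 and at SOX2 over 394 kb on chromosome 3. Further groups, with higher strongest values than the 284 at SOX2, lay at SLF1 (1012), at NR2F1 and POU5F2 (952), at MAN2A1 and TMEM232 (679) and at LIPG and RPL17 (499). Not all groups are named. On chromosome 4, 4 sites over 632 kb lay nearest to PTPN13, MAPK10, SLC10A6 and AFF1.

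The strongest sites had 381 different nearest genes, of which 337 had 1 strongest site, 33 had 2 and 11 had 3 or more. NR2F2 led with 8, at distances from 14.9 kb to 1040 kb and with values from 202 to 1887, and 5 of its 8 sites held TGACAG. It was also the nearest gene of 18 weaker sites. The protocadherin gene PCDH9 and the latrophilin gene ADGRL2 had 4 each, with strongest values of 1360 and 1095. With 3 each followed the ephrin receptor genes EPHA7 and EPHA5, the COUP-TF gene NR2F1, the neural progenitor factor SOX2, FLRT3 (a ligand of latrophilins), SPRY1 (an inhibitor of receptor tyrosine kinase signalling), SLF1 and ZNF608. The 3 sites at FLRT3 lay in introns of MACROD2, from 33.7 kb to 884 kb from the FLRT3 start, and none of them held TGACAG. All 3 at SOX2, at SLF1 and at ZNF608 held it. ZNF608 was also the nearest gene of 27 weaker sites, and EPHA5 of 1.

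Neighbouring genes were counted in 17 groups, with each site assigned to its nearest canonical start. Orphan nuclear receptors and NFI factors were the nearest genes of 11 strongest sites (2.48%) and of 34 weaker sites (0.719%), a difference of 1.76 points (95% interval 0.64 to 3.68), and this group alone passed the interval widened to share 5% of error among the 17 groups. All 11 belonged to NR2F2 with 8 and NR2F1 with 3, which take part in regional patterning of the forebrain, and no NFI gene was nearest to a strongest site. Without the sites nearest to NR2F2 in both classes, the counts were 3 and 16 and the difference 0.35 points (−0.15 to 1.67), so the call rested on the sites around this 1 gene, which share a locus. Against weaker sites of at least 50 the difference was 1.54 points and passed the 95% interval (0.20 to 3.50) but not the widened one. When every gene starting within 500 kb was counted, it was 0.80 points (−0.07 to 2.46).

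Genes of synaptic and neuronal adhesion were the nearest genes of 21 strongest sites (4.74%) and of 3.03% of the weaker sites (1.71 points, 0.01 to 4.15), which passed the 95% interval and not the widened one. They included ADGRL2 with a strongest value of 1095, FLRT3 with 763, ADGRL3, another latrophilin, with 583, and CADM1 with 468. Latrophilins bind both FLRT proteins and teneurins on neighbouring cells, and TENM4 and TENM3 had 2 strongest sites each. Those of TENM3 lay 106 kb and 2131 kb from its start. Weaker sites had the same nearest genes, with 16 at ADGRL2, 11 at ADGRL3 and 8 each at FLRT3, TENM4 and TENM3. For the adhesion group the 95% interval included 0 with a threshold of 300 (2.32 points, −0.18 to 6.60) and against weaker sites of at least 50 (1.36 points, −0.69 to 3.93). It also included 0 when every gene starting within 500 kb was counted (0.96 points, −0.39 to 3.07). With a threshold of 100, with strength ranked by fold enrichment, with either replicate alone and without the sites nearest to NR2F2 it excluded 0. No other group passed the 95% interval in the main comparison.

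Axon guidance genes had 16 strongest sites (3.61% against 2.79%, difference 0.82 points, −0.65 to 3.04) at 11 genes, led by EPHA7, RGMA (1318), EPHA3 (1301) and SEMA5A (984). Homeobox genes outside the TALE class had 11 (2.48% against 1.35%, 1.13 points, −0.02 to 3.06), among them POU5F2 (952), SIX3 (544), GSX1 (483) and SATB1 (387). SOX genes had 8 (1.81% against 0.868%, 0.94 points, −0.0013 to 2.67), at SOX6 with a value of 496, SOX21 with 443, SOX8 with 312, SOX2 with 284 and SOX5 with 162. The FGF and EGF pathway had 9 (2.03% against 1.04%, 0.99 points, −0.02 to 2.80), at ERBB4 (1007), FGFR3 (570), SPRED1 (337) and SPRY2 (295) among others. Each of these intervals included 0.

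Cadherins and non-clustered protocadherins had 10 strongest sites (2.26% against 2.33%), with PCDH9, PCDH18 (874), CDH8 (238) and CDH11 (191) in the lead. The Wnt pathway had 4 (0.903% against 0.846%), at LGR4, TCF7L2 (314), FZD1 (224) and WLS (171). WLS was the nearest gene of a different site from the one in its intron 10. Glutamate and GABA-A receptor genes had 4 (0.903% against 0.360%), among them those at GRM3 (550) and GRIA1 (172). Basic helix-loop-helix genes had 3 (0.677% against 0.339%), at ID4 (613) and OLIG1 (281). HES1 (307), ACVR2A (1219) and ZIC1 (183) were the only nearest genes of their groups. Each of these groups held 0.226% of the strongest sites, against 0.317%, 0.614% and 0.508% of the weaker sites. No FOX gene was nearest to a strongest site, against 15 weaker sites (0.317%), a difference of −0.32 points whose interval included 0 (−0.52 to 0.55). For comparison, ZNF genes had 5 (1.13% against 1.99%) and ribosomal protein genes 2 (0.451% against 0.190%).

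The TALE genes had 4 strongest sites (0.903% against 0.508%, 0.40 points, −0.21 to 1.80), 2 at PKNOX2 and 1 each at TGIF1 (1064) and IRX4 (270). MEIS1 was the nearest gene of 3 weaker and no strongest sites, with a highest value of 64.3, and MEIS2 of 2 weaker sites, with a highest value of 40.7. Of the genes the study inspected, DACH1, a dachshund-type transcription factor, was the nearest gene of 1 strongest site, with a value of 159, and of 7 weaker sites. This strongest site was intergenic, 467 kb downstream of the DACH1 start, and the next reproducible site was 238858 bp away. NTNG1 was nearest to 1 weaker site with a value of 17.2, and MDGA1 was nearest to no reproducible site. A nearest start does not cover the whole locus, so all sites within 500 kb of these starts were also counted. A strongest site with values of 439 in replicate 1 and 306 in replicate 2 lay 388 kb upstream of NTNG1, at rank 181, and was assigned to PRMT6 because that gene's start was 303 kb away. MDGA1 had 2 weaker sites within 500 kb, the higher with a value of 27.0 at 93.7 kb upstream, nearest to ZFAND3. No strongest site lay within 500 kb of the start of MEIS1, MEIS2 or MDGA1. The TALE genes IRX1, IRX2, IRX3, IRX5, MKX and PBX3 were nearest to weaker sites alone, with highest values from 21.7 at IRX5 to 97.6 at IRX1.

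By chromosome, no share differed once the interval was widened for 23 chromosomes, and 1 passed the 95% interval. Chromosome 19 held 67 weaker sites (1.42%) and no strongest site, a difference of −1.42 points (−1.80 to −0.51). The Wilson 95% interval for 0 of 443 reaches 0.860%. Chromosome 5 held the most strongest sites, 46 (10.4% against 7.98%, 2.41 points, −0.23 to 5.68). Base composition was close in both classes, with a mean GC content of 42.5% in the strongest and 43.1% in the weaker 500 bp windows and of 40.9% in windows taken every 100 kb along the genome.

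The full MEIS core TGACAG was not detectably more frequent in the strongest sites. The shorter TGACA is described separately below. TGACAG, searched on both strands in the 500 bp around the summit, was found in 263 strongest sites (59.4%) and in 58.2% of the weaker sites, a difference of 1.2004 points (−3.64 to 5.89), and in 27.7% of the windows along the genome. Of its 394 occurrences in the strongest sites 54.1% were centred within 50 bp of the summit, against 55.2% in the weaker sites (−1.17 points, −6.35 to 3.93). Windows with 2 or more copies made up 22.1% and 18.4% (3.76 points, −0.03 to 7.99). With this number of sites, no difference in TGACAG was detectable within these intervals.

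**Figure D3:**
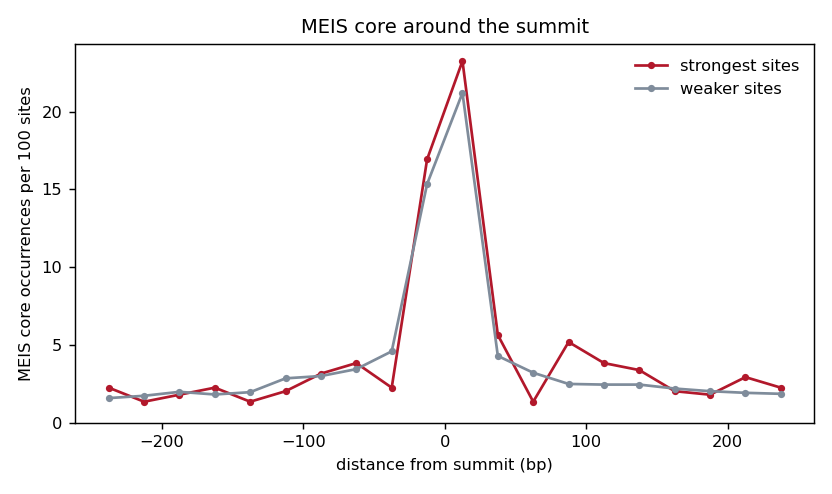
Occurrences of the MEIS core per 100 sites (y axis) by distance from the summit in bp (x axis, in bins of 25 bp), in red for the strongest and in grey for the weaker sites. Both lines peak at the summit, where 54.1% and 55.2% of the occurrences were centred within 50 bp.

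The composite of a PBX site with the MEIS core is shown for the 5 strongest sites that hold it outside exons, because it joins both sequences. It is a match of strings, and binding of PBX was not measured here. The lines run 5′ to 3′ on the strand that reads TGACAG, with its place in GRCh37, and the composite is in capitals.
LGR4 (chr11:27466390-27466423, plus strand): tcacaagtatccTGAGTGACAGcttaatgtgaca
PAFAH2 (chr1:26320267-26320300, minus strand): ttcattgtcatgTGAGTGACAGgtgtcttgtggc
TMEM232 (chr5:109738501-109738534, plus strand): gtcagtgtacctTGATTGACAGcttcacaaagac
GGACT (chr13:101163023-101163056, plus strand): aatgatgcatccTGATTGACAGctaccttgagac
THBS2 (chr6:169783283-169783316, plus strand): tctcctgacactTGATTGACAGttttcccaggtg

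This composite, TGATTGACAG or TGAGTGACAG, was found in 27 strongest sites (6.09%) and in 4.82% of the weaker sites (1.27 points, −0.71 to 3.96), and in 0.431% of the windows along the genome. Of its 27 occurrences 19 were centred within 50 bp of the summit. The merged value was a median of 239 in the strongest sites with the composite, against a median of 259 over all strongest sites. A palindromic pair, TGACAG followed by any base and TGTCA, was found in 3 strongest sites (0.677%) and in 0.381% of the weaker sites (0.30 points, −0.20 to 1.60). It is shown in capitals because it holds TGACA on both strands.
TXNL1 (chr18:53856542-53856577, plus strand): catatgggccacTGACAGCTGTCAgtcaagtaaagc
AKAP12 (chr6:151621607-151621642, plus strand): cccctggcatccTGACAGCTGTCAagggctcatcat
NTRK2 (chr9:87552318-87552353, plus strand): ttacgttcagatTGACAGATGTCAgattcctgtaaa

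Across 18 consensus sequences of transcription factor families, none differed in share once the interval was widened for 18, and 1 passed the 95% interval. The homeodomain core TAATT was found in 74.9% of the strongest and 69.8% of the weaker sites (5.14 points, 0.71 to 9.17), and in 76.0% of the windows along the genome. Its 95% interval included 0 with weaker sites weighted on GC content (3.66 points, −0.77 to 7.70), with a threshold of 300 (2.27 points, −4.69 to 8.34), with strength ranked by fold enrichment (2.92 points, −1.59 to 7.06) and when sites up to 5 kb from a start were left out of both classes (4.44 points, −0.05 to 8.51). In windows of 100 bp, a width chosen after the data were seen, its difference was 6.85 points (2.82 to 11.3) and passed the widened interval. SOX consensus CCATTGT or CCTTTGT was found in 30.5% and 29.6% (0.91 points, −3.40 to 5.54) and the TEAD consensus GGAATG in 38.8% and 38.1% (0.74 points, −3.90 to 5.56). The AP-1 sequence TGACTCA or TGAGTCA was found in 11.1% and 11.8% (−0.79 points, −3.55 to 2.59). The FOX sequence TGTTTAC or TATTTAC was found in 13.3% and 15.2% (−1.90 points, −4.93 to 1.73). The E-box CAGCTG was found in 37.5% and 33.9% (3.55 points, −1.04 to 8.34) and the POU octamer ATTTGCAT in 7.67% and 5.56% (2.11 points, −0.13 to 5.03). Windows along the genome held the SOX, TEAD and AP-1 sequences in 16.4%, 24.3% and 7.41%, the FOX sequence in 17.7%, CAGCTG in 16.5% and the octamer in 5.18%. The LHX sequence TAATTA, which contains TAATT, was found in 20.3% of the strongest and 18.0% of the weaker sites, and the second E-box, CAGATG, in 41.3% and 39.8%. The nuclear receptor site AGGTCA was found in 37.7% and 37.1%, the NFI sequence TTGGCA in 28.0% and 27.8% and the PBX-HOX composite TGATTNAT in 10.8% and 10.8%. The GC box GGGCGG was found in 8.35% and 9.88%, the RFX sequence GTTGCCA or GTTGCTA in 11.7% and 13.9% and the CTCF consensus in 0.451% and 0.614%. The 95% intervals of all of these differences in share included 0. Position in the window was also read, as a description with no test. The PBX-HOX composite had 28 of 60 occurrences within 50 bp of the summit in the strongest sites (46.7%, Wilson 95% interval 34.6 to 59.1). In the weaker sites it had 149 of 555 there (26.8%, 23.3 to 30.7). TAATT had 21.1% (18.3 to 24.2) and 16.5% (15.7 to 17.4). For the other consensus sequences the intervals of the classes overlapped.

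**Figure D4:**
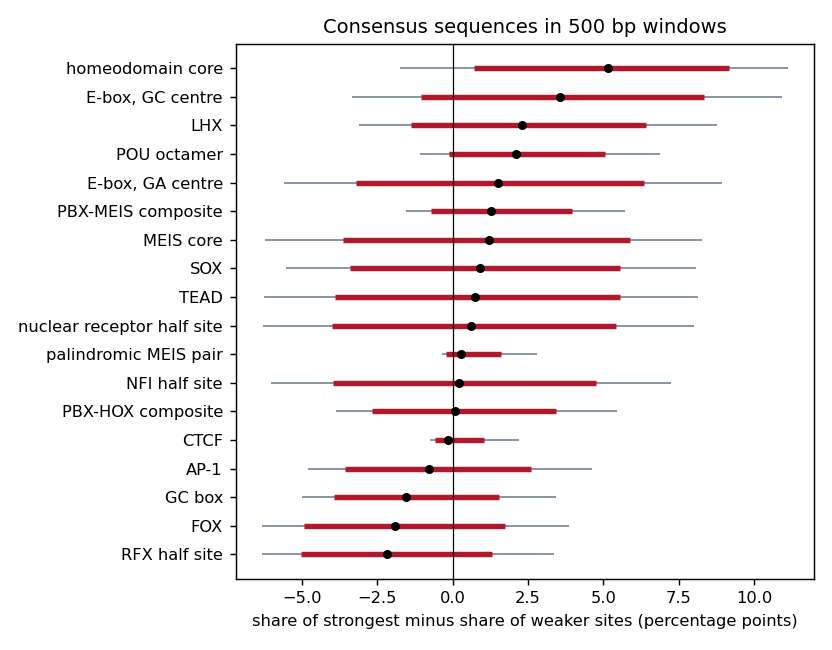
Difference in share between strongest and weaker sites (x axis, percentage points, positive where the strongest sites have more) for 18 consensus sequences (y axis) in 500 bp windows. Points are the differences, thick red lines 95% intervals and thin grey lines the intervals widened for 18 comparisons, and every grey line crosses 0.

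A search over hexamers asked whether any other short sequence separated the classes. In 500 bp windows, 1686 hexamers that were present in at least 5% of all sites were compared, each counted with its reverse complement, by the interval of the difference in share. None passed the interval widened for all of them (0%), and 63 were more frequent in the strongest sites by the 95% interval (3.74%). In windows of 200 bp, 59 of 1343 passed the 95% interval in this direction (4.39%) and 2 passed the widened interval (0.149%), ACATCT, in 30.5% against 21.0% of sites (9.46 points, 5.19 to 14.05), and GACATC, in 24.8% against 16.7% (8.09 points, 4.14 to 12.4). In windows of 100 bp, the width chosen after the data were seen, 48 of 774 passed the 95% interval (6.2%) and 5 passed the widened one (0.646%). These were GACATC, with 22.3% against 12.2% (10.2 points, 6.42 to 14.4), ACATCT, with 24.2% against 14.4%, ATTAAG, with 18.5% against 10.9%, ATGAAG, with 20.1% against 12.6%, and AAGATG, with 17.8% against 11.3%. The string TGACATCTT holds GACATC as well as ACATCT and, on its other strand, AAGATG, so their counts can overlap and are not independent findings. This string lay within 50 bp of the summit in 20 strongest sites, against 99 with GACATC, 107 with ACATCT and 79 with AAGATG in 100 bp windows. TGACATC lay there in 53 strongest sites, so GACATC also occurred outside TGACATC, and the string covers a part of these sites alone. No hexamer passed the widened interval as less frequent in the strongest sites, in windows of any of these widths.

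The string TGACATCTT begins with TGACA, the MEIS core without its last base, and continues with T where TGACAG has G. It is shown for the 12 strongest sites that hold it outside exons and within 50 bp of the summit. Lines run 5′ to 3′ on the strand that reads TGACA, and the string is in capitals.
MDFIC (chr7:114496731-114496763, minus strand): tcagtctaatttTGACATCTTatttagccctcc
AGAP1 (chr2:236562922-236562954, plus strand): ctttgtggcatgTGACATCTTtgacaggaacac
IFNGR1 (chr6:137661343-137661375, minus strand): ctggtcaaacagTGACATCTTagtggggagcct
DENND1A (chr9:126623992-126624024, minus strand): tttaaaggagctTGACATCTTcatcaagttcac
HDAC9 (chr7:18845935-18845967, minus strand): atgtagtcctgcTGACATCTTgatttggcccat
TENM4 (chr11:78938914-78938946, plus strand): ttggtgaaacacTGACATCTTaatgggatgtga
ADAMTS19 (chr5:128746429-128746461, minus strand): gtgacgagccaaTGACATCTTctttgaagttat
RNF217 (chr6:125155220-125155252, minus strand): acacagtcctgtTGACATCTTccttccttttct
TMEM232 (chr5:109593715-109593747, minus strand): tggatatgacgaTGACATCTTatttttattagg
ITGB8 (chr7:20350852-20350884, plus strand): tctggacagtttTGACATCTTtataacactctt
MYH9 (chr22:36781317-36781349, minus strand): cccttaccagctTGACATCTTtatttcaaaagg
MSX1 (chr4:4845852-4845884, plus strand): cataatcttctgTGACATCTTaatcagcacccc

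These forms were chosen after the hexamers had been seen, so their shares are a description with no test. TGACATCTT lay within 50 bp of the summit in 20 strongest sites (4.51%, Wilson 95% interval 2.94 to 6.87) and in 67 weaker sites (1.42%, 1.12 to 1.80). The shorter TGACATC lay there in 53 strongest sites (11.96%, 9.26 to 15.3) and 289 weaker sites (6.12%, 5.47 to 6.83), and TGACAT in 25.7% (21.9 to 30.0) and 19.7% (18.6 to 20.8). The same continuation after the G form, TGACAGCTT, was found in 18 strongest sites (4.06%, 2.59 to 6.33) and in 2.41% of the weaker sites (2.01 to 2.89). It is printed for 5 strongest sites in the same way, for comparison with the T form.
SEMA5A (chr5:9452322-9452354, minus strand): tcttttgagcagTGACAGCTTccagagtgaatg
PRMT8 (chr12:3689389-3689421, minus strand): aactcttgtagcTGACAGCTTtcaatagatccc
TMEM232 (chr5:109738505-109738537, plus strand): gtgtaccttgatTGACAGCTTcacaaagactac
GRM3 (chr7:86036861-86036893, minus strand): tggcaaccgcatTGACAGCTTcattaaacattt
B3GALNT1 (chr3:160760000-160760032, minus strand): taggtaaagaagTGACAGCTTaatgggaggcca

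The bases that follow TGACA were then read. In 330 strongest sites (74.5%) and 3303 weaker sites (69.9%), TGACA was centred within 50 bp of the summit, and the copy nearest to the summit was read in each. It was followed by G in 49.4% of the strongest and 49.3% of the weaker sites, by T in 22.1% and 20.04%, by A in 17.6% and 18.1% and by C in 10.9% and 12.5%. At the next position, counted from 1 at the first T of TGACA, position 7 was C in 40.0% of the strongest and 32.8% of the weaker sites. Position 8 was T in 52.1% and 41.4%, and position 9 was T in 34.2% and 26.9%. TGACANCT, with any base at N, lay within 50 bp of the summit in 102 strongest sites (23.02%, 19.3 to 27.2) and in 719 weaker sites (15.2%, 14.2 to 16.3). The nearest TGACA lay a median of 3.5 bp from the summit in the strongest and 6.5 bp in the weaker sites. No TGACA was present in the 500 bp window of 31 strongest sites (6.998%), against 9.27% of the weaker sites. That window held 3 or more copies in 197 strongest sites (44.5%) and in 1724 weaker sites (36.5%). The mean was 2.45 and 2.23 copies per site. These counts are a description with no test.

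The shares were also read in steps of strength over the whole list, as a description. GACATC in the 100 bp window was present in 11.1% of the 2149 sites under 25, in 12.8% of those from 25 to 50 and in 12.4% of those from 50 to 100. It was then present in 16.4% of the sites from 100 to 150, in 19.8% from 150 to 300, in 24.1% from 300 to 600 and in 28.8% (19.7 to 40.0) of the 73 sites of 600 or more. GACATC had been picked for its difference across 150 in these same sites, so its rise is in part set by that choice. TGACAG, not picked in this way, was read in the wider 500 bp window. It was present in 57.8% under 25, 56.6% from 25 to 50, 61.1% from 50 to 100 and 60.9% from 100 to 150. Its shares were then 57.0% from 150 to 300, 61.6% from 300 to 600 and 64.4% (52.9 to 74.4) at 600 or more. A canonical start within 5 kb was found in 10.1% of sites under 25, in 9.26% from 25 to 50, in 5.48% from 50 to 100 and in 7.12% from 100 to 150. It was found in 4.65% from 150 to 300, in 1.79% from 300 to 600 and in 2.74% (0.75 to 9.45) at 600 or more, so the order of the steps was not steady. Another site within 50 kb was found in 31.0% under 25, in 41.5% from 150 to 300, in 41.96% from 300 to 600 and in 34.2% (24.4 to 45.7) at 600 or more. The shares changed over several steps and not at 150 alone.

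**Figure D5:**
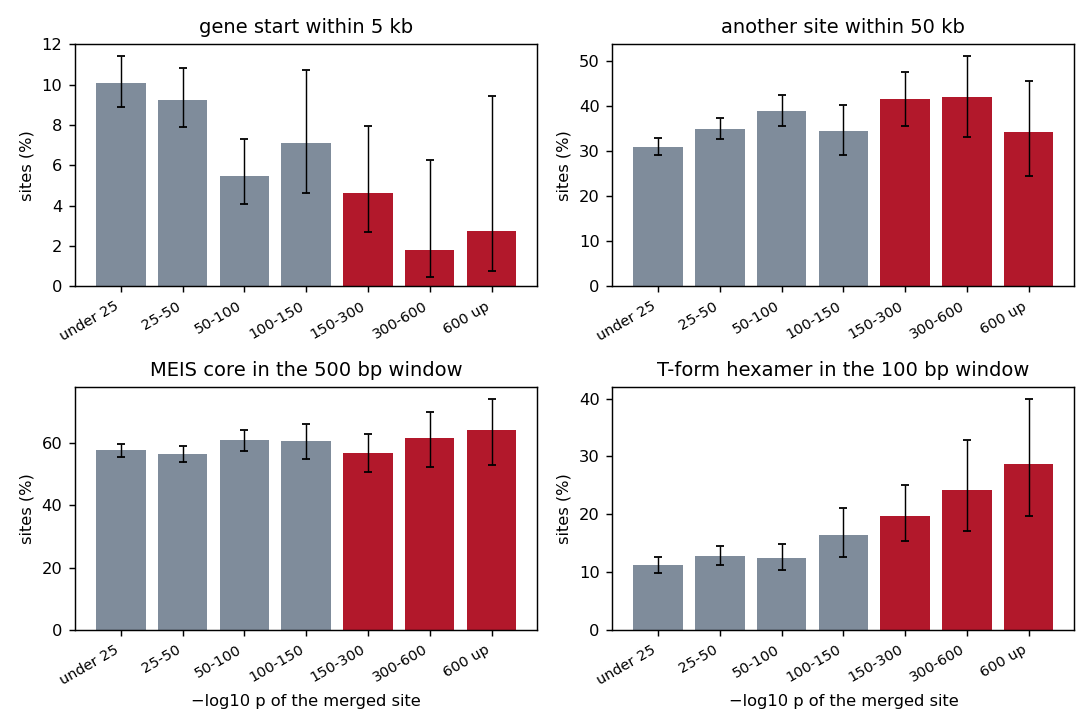
Share of sites (y axis, %) in steps of the merged −log10 p (x axis). Panels show a gene start within 5 kb, another site within 50 kb, the MEIS core in the 500 bp window and GACATC in the 100 bp window. The hexamer GACATC is labelled the T-form hexamer after TGACATC, though it also occurs outside TGACATC. It was picked for its difference across 150 in these same sites. Bars are shares with Wilson 95% intervals, grey below and red at or above 150, and the T-form hexamer goes from 11.1% in the lowest to 28.8% in the highest step.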

How the data were processed

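MEIS ChIP-seq and Input libraries of untreated hNSC were grouped by their titles. Per the submitters' processing notes, the authors used cutadapt 1.16, Bowtie2 2.3.0, SAMtools 1.2, Picard 2.15.0 and MACS2, with reads mapped to GRCh37. The authors called peaks per replicate against input and combined both lists by the irreproducible discovery rate (IDR). The filter on mapping quality that the study describes removes reads whose place in the genome is uncertain, and reads from repeats that map to 1 place can remain. The deposited replicate lists hold 36796 and 47449 peaks with the authors' fold enrichment, a linear ratio over input, and −log10 p. For each reproducible site the deposited list gives a merged −log10 p and a summit. Its 8 columns of per-replicate values were not used here. Values per replicate came from the strongest overlapping peak. Read counts are not part of these lists, so depth is unknown, as is which of the described wash protocols a replicate had.

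Sites were annotated from GENCODE 44 mapped to GRCh37 by distance from the summit to canonical starts of protein-coding genes. Shares were compared by Newcombe intervals at 95%, widened to 1 − 0.05/k for families of k comparisons. They cover the number of sites alone. Consensuses, written as strings, were searched on both strands. Genes named are the nearest genes of the 20 strongest sites, of at least 3 strongest sites, of the sites beside the threshold and of the strongest sites holding the composite or palindrome, the 4 leading genes of each group, TALE genes, and MEIS1, MEIS2, MDGA1, NTNG1 and DACH1. Further genes, at sites within 5 kb of a start, in groups of neighbouring sites, beyond the leading 4 of a gene group, within 500 kb of NTNG1 and MDGA1 and at the TGACATCTT and TGACAGCTT sites, were named after their values were seen. No list of artefact-prone regions was used here. The site of rank 3 is not reported here. Members, lists and tests were chosen with earlier results of these data known. Alternatives changed the threshold, the measure of strength, the weaker sites, the replicates, the windows, GC content, the annotation and the distances. Windows of 100 bp and leaving out the sites nearest to NR2F2 were chosen after seeing the data. Analyses used Python 3.11.15, numpy 2.4.6, pandas 2.3.3, scipy 1.17.1 and samtools 1.23.1. The intervals were tried on simulated independent counts and the string search on planted strings. Sites that share a locus, overlapping hexamers and the annotation were not simulated.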

Additional observations from a re-analysis of the deposited data

How the results depend on the processing

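No paired analysis was possible because each share is taken over sites of the merged list, with no fit over samples, and Input enters through the peak calls alone. Each alternative changed 1 choice. With only weaker sites of at least 50 as the comparison, the difference within 5 kb of a start was −2.30 points and that for another site within 50 kb was 2.66 points, both with intervals including 0, TGACAG differed by −1.66 points, its occurrences near the summit by 2.03 points, and 0 gene groups were called. With a threshold of 300, intervals including 0 were found for starts further than 100 kb (6.88 points) and another site within 50 kb (4.71 points), the gene body share differed by −3.14 points, the composite by −1.19 points, and 1 hexamer, AAGATG, was called. With a threshold of 100, the gene body share differed by −0.54 points, and with all annotated genes by −1.09 points. With strength ranked by fold enrichment, occurrences near the summit differed by 0.69 points. With strength set by a single replicate, another site within 50 kb ranged from 3.50 to 6.01 points and the composite from −0.62 to 1.40 points. Hexamers called were 0 in 500 bp, 2 in 200 bp and 5 in 100 bp windows, and consensuses called were 0, and 1 in 100 bp windows. Gene groups called were 1, 0 when any gene within 500 kb was counted and 0 without the sites nearest to NR2F2. The causes of these changes were not tested. The gene body, TGACAG and composite differences had intervals including 0 under every alternative tried. The number of strongest sites, 443, sets the width of the intervals, and what read depth adds is unknown.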
